A study of Mus musculus with 20 samples.

Results

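The effect of folic acid (FA) on gene expression in healthy hearts was examined on 8 of the 20 left ventricle arrays of a mouse study, namely the 4 arrays labelled sham FA and the 4 labelled sham plac, chosen by these labels alone. FA-sham mice received FA at 10 mg per day in the diet from 7 days before a saline injection until the end at day 10. Sham mice received the placebo diet and the same injection. All mice were male C57BL/6 aged 2 months by the labels, and none of these 8 received doxorubicin (DOXO). The other 12 arrays, 6 FA-DOXO and 6 DOXO, came from mice injected with DOXO at 20 mg/kg and entered the fits to share an estimate of the spread and, where the array SD was a covariate, of its slope. RNA from whole ventricle tissue was hybridized to Affymetrix Mouse Gene 1.0 ST arrays, on which a transcript cluster is the summary of the probes over 1 gene. Values are log2 signals. Of 34760 clusters, 21640 carried 1 gene symbol and could be named. They represented 19937 genes, each by its brightest cluster.

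Folic acid is a synthetic form of the vitamin folate. Cells take it up through carriers and receptors, reduce it to tetrahydrofolate, and use it to carry single carbon units for the synthesis of thymidylate and purines and for the remethylation of homocysteine to methionine, with linked branches in the cytosol and the mitochondrion. In the vessel wall folates are also known to favour the coupled state of endothelial nitric oxide (NO) synthase, which depends on the cofactor tetrahydrobiopterin. These pathways were therefore described first, followed by genes of heart muscle and by markers of the other cells of the ventricle.

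The spread of the signals differed between the arrays of these groups. The SD of all log2 signals on an array was 0.880, 0.936, 0.877 and 1.137 in FA-sham replicates 1 to 4, against 1.194, 1.501, 1.426 and 0.941 in sham replicates 1 to 4. The mean array SD was 0.957 ± 0.123 in FA-sham and 1.27 ± 0.253 in sham (SD, n = 4 each), a difference of -0.308 (two-sided exact permutation test, p = 0.0571, where 4 against 4 arrays cannot go below 0.0286). The array medians averaged 6.63 in FA-sham and 6.39 in sham (exact permutation test, p = 0.0571). Arrays with an SD above 1.1 are here called wide and the others narrow, so that FA-sham held 1 wide array (replicate 4) and sham held 3 (replicates 1 to 3). Between FA-DOXO and DOXO the mean array SD was 1.04 and 1.13 (exact permutation test, p = 0.504).

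The identity of the tissue was read from markers of heart muscle. Myh6, the adult alpha myosin heavy chain, had log2 signals of 7.26, 7.15, 6.98 and 9.69 in FA-sham, against 9.56, 12.50, 11.72 and 7.41 in sham. Actc1, cardiac actin, had log2 signals of 8.75, 8.84, 8.83 and 12.88 in FA-sham, against 12.03, 14.08, 13.82 and 8.61 in sham. In both groups the wide arrays were the ones with high muscle signals, and the narrow arrays, including sham replicate 4, were low. The mean of the 10 cardiomyocyte markers ran over the arrays from 8.38 to 11.80 in FA-sham and from 9.76 to 13.10 in sham. That of the 14 endothelial markers ran from 6.81 to 7.75 in FA-sham and from 6.95 to 9.09 in sham, and that of the 9 fibroblast markers from 6.98 to 8.14 in FA-sham and from 7.24 to 8.73 in sham. On the narrow arrays of these 2 groups Myh6 lay at 6.98 to 7.41, where the array medians were 6.60 to 6.66. Over the series, the lowest correlation between 2 arrays was 0.53. In bulk tissue, fewer cells of a type and less RNA per cell cannot be told apart, and the quality of the RNA and of the arrays was not tested here. Array spread moved with the diet groups, and its part in the differences below was not tested beyond the fits that carry it.

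**Figure D1:**
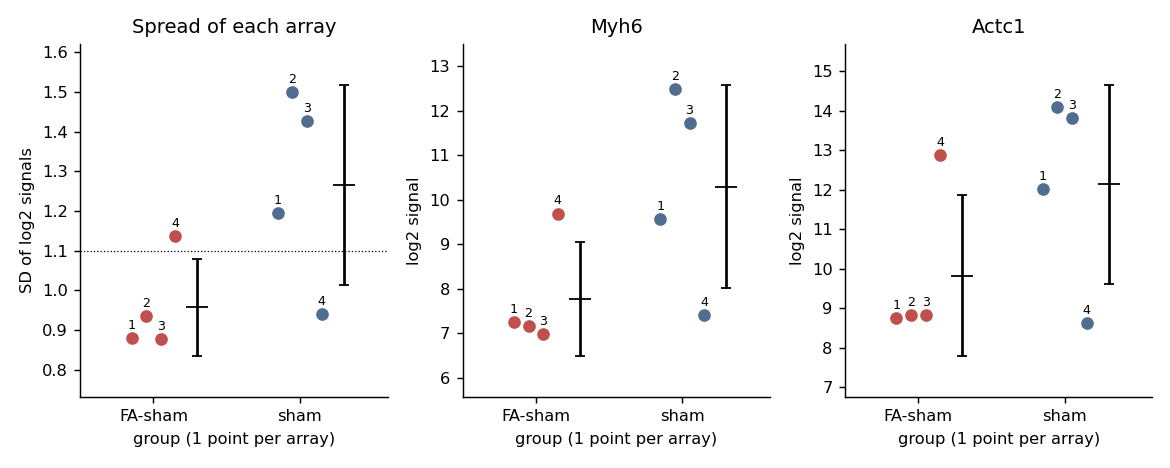
SD of all log2 signals on each array (left), and log2 signals of Myh6 and Actc1 (middle and right), in FA-sham and sham, with 1 point per array, the replicate number above it, and the mean ± SD of 4 arrays beside it. The dotted line marks an SD of 1.1. FA-sham replicate 4 and sham replicates 1 to 3 lie above it and carry the 4 highest Myh6 and Actc1 signals.

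No cluster differed between FA-sham and sham after adjustment. With limma and Benjamini-Hochberg adjustment over all clusters, 0 passed 0.05 (smallest adjusted p = 0.156), while 10784 had an unadjusted p under 0.05. The study used an unadjusted threshold of 0.01, which is used below and is called the threshold. At it, 1512 clusters (4.35%) passed, 1320 (3.8%) higher and 192 (0.552%) lower in FA-sham, where 347.6 would pass if no cluster differed and the test held its nominal rate. The median log2 difference over all clusters was 0.19. Its sign followed the level of the signal. With the clusters ordered by mean signal into 10 equal classes, it was 0.39 in class 3, -0.45 in class 9 and -0.94 in class 10, the brightest. The groups did not overlap in 1466 clusters (4.22%) that were higher and 205 (0.59%) that were lower in FA-sham. Quantile normalization, centring on the array median, and scaling to a common median and SD brought the median over all clusters to 0.03, -0.04 and -0.08, and the split of calls to 559 higher and 292 lower, 410 and 611, and 371 and 707. The count also rested on single arrays. Of higher calls, 8178 were made without sham replicate 4, and 171, 210, 376, 418 and 309 without sham replicate 2, sham replicate 3 and FA-sham replicates 1, 2 and 3. Of lower calls, 1598 were made without sham replicate 4 and 687 without FA-sham replicate 4, and 67, 82, 78, 127 and 54 without sham replicate 2, sham replicate 3 and FA-sham replicates 1, 2 and 3. Without sham replicate 4, 14815 clusters passed the adjusted threshold.

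With the array SD as a covariate, so that the groups were compared at equal spread, fewer clusters passed. There were 635 (1.83%), 575 higher (1.65%) and 60 lower (0.173%) in FA-sham, and 0 passed after adjustment (limma, smallest adjusted p = 0.152, with 2755 at an unadjusted p under 0.05). The median log2 difference over all clusters was 0.07, and over the 10 signal classes it ran from -0.01 to 0.10. Both fits called 332 clusters, all in the same direction, which are 22.0% of the calls without covariate and 52.3% of those with it. The covariate is a slope estimated over all 20 arrays. In a fit to the 8 arrays alone, 155 clusters were higher and 35 lower, and without sham replicate 4, 1400 were higher and 162 lower, with 56 past the adjusted threshold. Lower calls also moved to 97 without sham replicate 1, to 39 without FA-sham replicate 3 and to 135 without FA-sham replicate 4. Within the wide arrays, 1 FA-sham against 3 sham, 3259 clusters passed (9.38%). Within the narrow arrays, 3 FA-sham against 1 sham, 82 passed (0.236%). Both contrasts take the spread of the lone array from the other arrays. Neither compares arrays of equal SD. The lone wide FA-sham array had an SD of 1.137, below 1.194, 1.501 and 1.426 in sham replicates 1 to 3. Of the 635 calls with array SD, 230 also passed within the wide and 11 within the narrow arrays in the same direction.

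**Figure D2:**
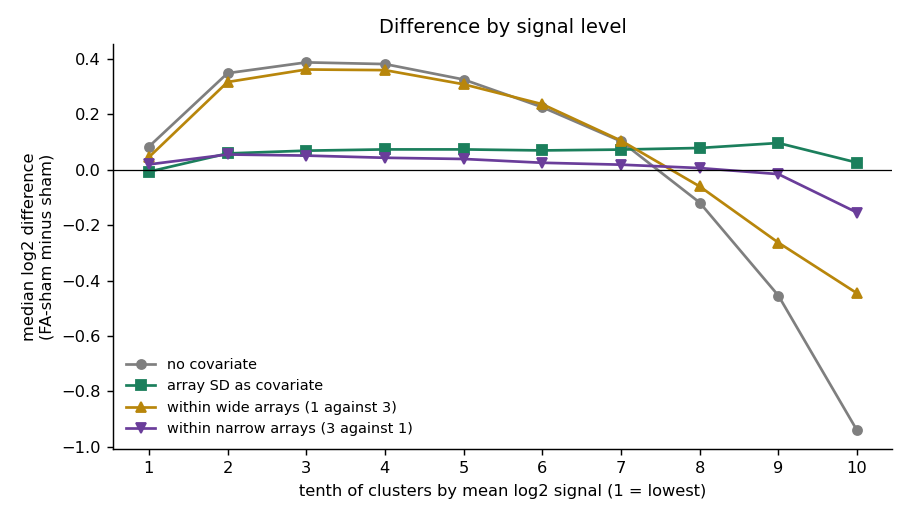
Median log2 difference, FA-sham minus sham, in each of 10 equal classes of the clusters ordered by mean log2 signal over all 20 arrays, without covariate, with the array SD as a covariate, within the wide arrays and within the narrow arrays. Without covariate the line falls to -0.94 in the brightest class. With array SD it stays between -0.01 and 0.10.

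Among 34 genes of folate transport and the folate cycle, 1 passed the threshold. That gene was Gldc, the decarboxylase of the glycine cleavage system that feeds carbon units into the mitochondrial cycle. Its log2 signals were 6.69, 6.59, 6.70 and 6.41 in FA-sham, against 6.01, 5.46, 5.76 and 6.52 in sham. The groups overlapped, because sham replicate 4 was above FA-sham replicate 4. Its signals were near or below the array medians, which averaged 6.63 in FA-sham and 6.39 in sham. The log2 difference was 0.66 ± 0.20 (SE) without covariate (limma, adjusted p = 0.156) and 0.27 ± 0.09 with array SD (adjusted p = 0.516), past the threshold in both fits. It was 0.14 within the narrow arrays and 0.67 within the wide ones, and in the 8 arrays alone with array SD it was 0.16 and did not pass. Over all genes, 4.22% were called without covariate (3.92% higher and 0.301% lower in FA-sham) and 1.91% with array SD (1.88% higher and 0.0351% lower).

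Of the 11 genes of folate uptake and transport, 0 passed in either fit. Slc19a1, the reduced folate carrier, had log2 signals of 7.78, 7.87, 7.90 and 7.63 in FA-sham, against 7.47, 6.52, 6.85 and 7.91 in sham. The signal of sham replicate 4 was above all FA-sham values, and the log2 difference was 0.61 ± 0.29 without covariate and 0.07 ± 0.15 with array SD. Folr2, folate receptor beta, had log2 signals of 7.17, 7.28, 7.25 and 7.75 in FA-sham, against 7.91, 7.85, 7.94 and 7.31 in sham. Its log2 difference was -0.39 ± 0.21 without covariate and -0.09 ± 0.17 with array SD. Folr1, folate receptor alpha, differed by 0.52 ± 0.22 and 0.09 ± 0.09 in the same fits, and Slc46a1, the proton-coupled folate transporter of the gut, by 0.25 ± 0.12 and 0.09 ± 0.09. The smallest p with array SD in the list belonged to Slc19a2, a thiamine carrier, at 0.29 ± 0.10, which missed the threshold. The median log2 difference of the list was 0.17 without covariate and 0.09 with array SD, beside 0.18 and 0.08 over all genes.

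Of 11 genes of the cytosolic folate cycle, 0 passed in either fit. Tyms, thymidylate synthase, differed by 0.16 ± 0.12 without covariate and 0.15 ± 0.12 with array SD on the log2 scale. Shmt1, the cytosolic serine hydroxymethyltransferase, differed by 0.33 ± 0.14 and 0.12 ± 0.10, and Mthfd1, the trifunctional folate enzyme, by -0.06 ± 0.18 and 0.13 ± 0.17. The largest difference without covariate was that of Paics, an enzyme of purine synthesis, at -1.38 ± 0.67, and it was 0.04 ± 0.12 with array SD. Of the 12 genes of the mitochondrial folate cycle, the 11 besides Gldc did not pass. Shmt2, the mitochondrial serine hydroxymethyltransferase, differed by -0.59 ± 0.30 and 0.00 ± 0.12, and Mthfd2, its partner in the mitochondrial matrix, by 0.21 ± 0.13 and 0.14 ± 0.12. With array SD the medians were 0.10 for the cytosolic and 0.09 for the mitochondrial list.

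**Figure D3:**
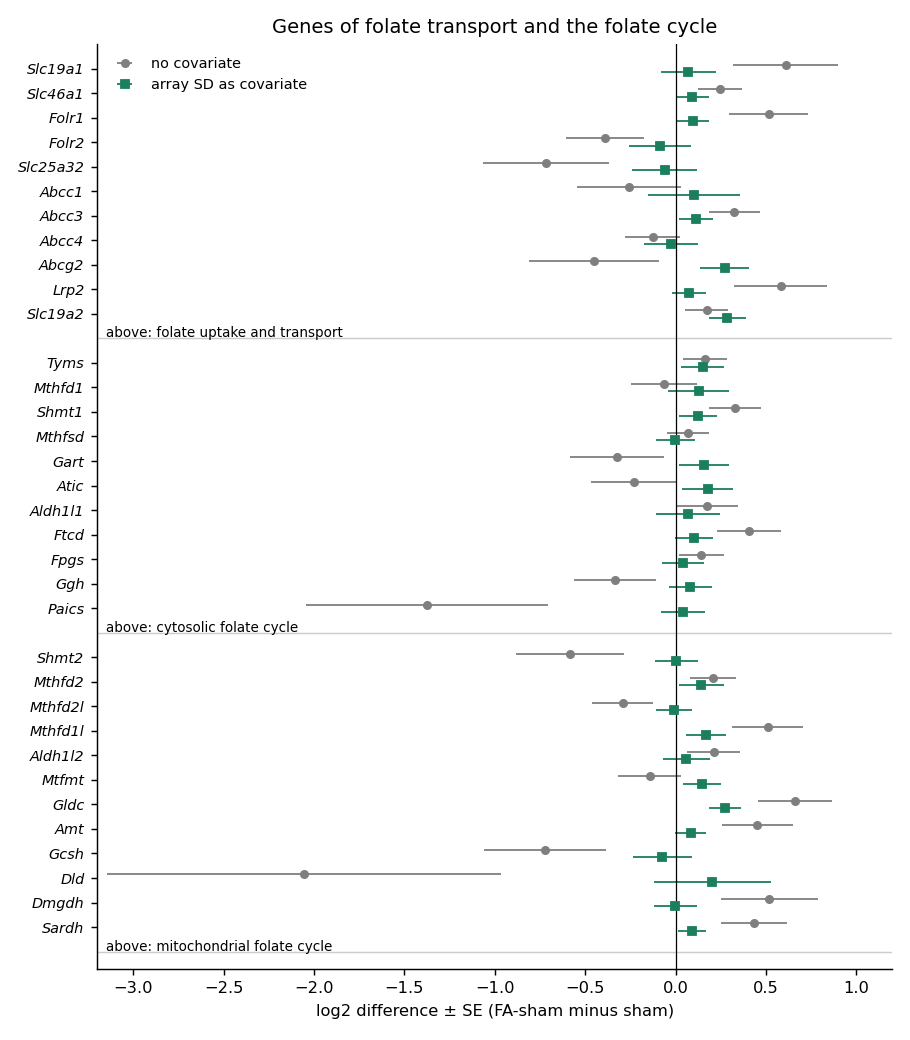
Log2 difference, FA-sham minus sham, with its SE for 11 genes of folate uptake and transport, 11 of the cytosolic and 12 of the mitochondrial folate cycle, without covariate and with the array SD as a covariate. Without covariate the differences run from -2.06 for Dld to 0.66 for Gldc, and with array SD from -0.09 for Folr2 to 0.29 for Slc19a2.

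In the methionine cycle, which takes up the carbon units of folate, 1 of 19 genes passed the threshold. Bhmt2, a homocysteine methyltransferase that does not use folate, had log2 signals of 7.04, 6.71, 6.92 and 6.69 in FA-sham, against 6.01, 5.80, 5.96 and 6.78 in sham. Sham replicates 1 to 3 were below all FA-sham values and sham replicate 4 was among them. The log2 difference was 0.70 ± 0.22 without covariate (limma, adjusted p = 0.156) and 0.29 ± 0.10 with array SD (adjusted p = 0.535), and in the 8 arrays alone with array SD it was 0.24 and did not pass. Mtr, methionine synthase, which joins the folate and methionine cycles, differed by -0.38 ± 0.28 without covariate and 0.08 ± 0.20 with array SD, and Cbs, the first enzyme of transsulfuration, by 0.49 ± 0.19 and 0.18 ± 0.12. Of 12 genes of DNA methylation, Mbd4, a DNA glycosylase that binds methylated DNA, passed without covariate at 0.43 ± 0.15 and not with array SD at 0.17 ± 0.07.

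Of 22 genes of NO synthesis and tetrahydrobiopterin metabolism, 0 passed in either fit. Nos3, the endothelial synthase, averaged 6.92 ± 0.08 in FA-sham and 7.13 ± 0.51 in sham (SD, n = 4 each), a log2 difference of -0.21 ± 0.28 without covariate and 0.17 ± 0.24 with array SD. Nos1, the neuronal synthase, averaged 6.68 ± 0.21 in FA-sham and 6.20 ± 0.37 in sham, and differed by 0.48 ± 0.20 and 0.11 ± 0.09. Nos2, the inducible synthase, averaged 6.79 ± 0.08 in FA-sham and 6.72 ± 0.20 in sham, and differed by 0.08 ± 0.13 and -0.04 ± 0.12. Gch1, which makes the first committed step to tetrahydrobiopterin, differed by -0.08 ± 0.12 and -0.07 ± 0.12. Pcbd1, which recycles the cofactor, was the gene of this list whose groups did not overlap, at 0.18 ± 0.12 and 0.15 ± 0.11, where 4.17% of all genes had every FA-sham value above every sham value. The median of the list was -0.10 without covariate and 0.10 with array SD.

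In the NADPH oxidase list, 3 of 11 genes were higher in FA-sham without covariate and 1 of 11 with array SD, beside 3.92% and 1.88% of all genes. Noxo1, the organizer subunit of the Nox1 enzyme, had log2 signals of 7.14, 6.88, 7.07 and 6.89 in FA-sham, against 6.50, 6.02, 6.28 and 6.81 in sham, and the groups did not overlap. It was higher by 0.59 ± 0.17 without covariate (limma, adjusted p = 0.156) and by 0.28 ± 0.09 with array SD (adjusted p = 0.516), and was at 0.22 within the narrow arrays and at 0.23 in the 8 arrays alone with array SD, where it did not pass. Nox1 itself and Ncf4, a cytosolic subunit of the phagocyte enzyme, passed without covariate at 0.54 ± 0.19 and 0.41 ± 0.14 and did not pass with array SD at 0.19 ± 0.08 and 0.20 ± 0.10. Among 24 antioxidant and glutathione enzymes, 0 passed without covariate. With array SD the quinone reductase Nqo1 passed, and its values are given below with those of Glul. The median of these 24 genes was -0.99 without covariate, 0.16 with array SD and -0.12 within the narrow arrays.

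Lists of heart muscle and energy metabolism had the most negative medians without covariate, and most of their genes did not pass the threshold. Of 19 sarcomere genes 0 passed, at a median log2 difference of -2.11, and with array SD 0 passed at a median of 0.11. Of 35 genes of complex I, Ndufb11 passed at -2.45 ± 0.82, and of 36 genes of complexes II to V, Cox6c and Cox7b of cytochrome c oxidase and Cycs, cytochrome c, passed. All were lower in FA-sham, where 0.301% of all genes were called lower without covariate. With array SD, 0 of these 71 genes passed. Cox6c had log2 signals of 10.67, 12.66, 11.12 and 13.09 in FA-sham, against 14.29, 13.75, 13.81 and 12.53 in sham. FA-sham replicates 1 and 3 were the lowest of the 8 arrays, and sham replicate 4 lay between FA-sham replicates 3 and 2. The log2 difference of Cox6c was -1.71 ± 0.58 without covariate (limma, adjusted p = 0.156), 0.31 of the sham level, and -0.84 ± 0.47 with array SD (adjusted p = 0.68). Cox7b differed by -1.71 ± 0.58 and -0.86 ± 0.48, and Cycs by -1.54 ± 0.52 and -0.80 ± 0.43. The other clusters of Cycs gave -1.97 and 0.02 without covariate, while the second clusters of Ndufb11, Cox6c and Cox7b gave -2.11, -1.51 and -1.91.

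The respiratory lists differed from the sarcomere list in what array SD left. The median of complex I was -1.86 without covariate, -0.33 with array SD, -0.68 within the wide and -0.71 within the narrow arrays. The median of complexes II to V was -1.84, -0.32, -0.71 and -0.83 in the same order. Both stayed negative with quantile normalization, at -1.04 and -0.96, and with that normalization and array SD together, at -0.40 and -0.25. The sarcomere median was -0.70 within the wide and -0.31 within the narrow arrays, and -0.05 with quantile normalization and array SD. None of these genes passed within the narrow arrays. The 10 cardiomyocyte markers had medians of -0.21 with array SD, -0.67 within the wide and -1.18 within the narrow arrays. Those of the 21 cytosolic ribosomal proteins were -0.03, -0.57 and -0.60 in the same order. Among the wide arrays, that of FA-sham had a smaller SD than each of sham. The narrow arrays were not equal in spread either. FA-sham replicate 2 and sham replicate 4 had SDs of 0.936 and 0.941 and Cox6c signals of 12.66 and 12.53. FA-sham replicates 1 and 3 had SDs of 0.880 and 0.877 and Cox6c signals of 10.67 and 11.12. The difference between the lists was not tested.

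Other genes among the 10 lowest of those past the threshold without covariate covered several functions. Larger differences that missed it, such as that of Tnnt2, cardiac troponin T, at -2.75, were seen in heart muscle genes. Gabarap, a protein of the autophagosome membrane, had log2 signals of 7.32, 9.90, 7.85 and 11.66 in FA-sham, against 12.92, 12.60, 12.58 and 10.44 in sham. It was lower by a log2 difference of -2.95 ± 0.93, or -1.40 ± 0.66 with array SD, which did not pass. Naa20, a subunit of an N-terminal acetyltransferase, averaged 8.19 ± 0.99 in FA-sham and 10.19 ± 1.09 in sham (SD, n = 4 each). The ribosomal protein gene Rpl38 differed by -1.61, Rpa3 of the replication protein A complex by -1.53 and the small nucleolar RNA Snora52 by -1.46. Rpl38 has 4 clusters, which gave -1.75, -1.68, -1.61 and -0.73. The second cluster of Rpa3 gave -0.55 and did not pass, and that of Naa20 gave -1.97. Without sham replicate 2, without sham replicate 3 or without FA-sham replicate 3, 19 of the 20 genes named by this fit lost their call, and 4 did so without FA-sham replicate 4.

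Among 9 genes of MHC class II, 1 was higher and 2 were lower in FA-sham without covariate, beside 3.92% and 0.301% of all genes. The list median was -0.11, and 0 passed with array SD. H2-Aa, an alpha chain that presents peptides on antigen-presenting cells, had log2 signals of 6.30, 6.64, 6.46 and 8.27 in FA-sham, against 9.07, 9.27, 9.29 and 6.37 in sham. The 3 wide sham arrays were the highest, the wide FA-sham array came next, and sham replicate 4 lay among the narrow FA-sham arrays. The log2 difference was -1.58 ± 0.51 without covariate (limma, adjusted p = 0.156), 0.33 of the sham level, and with array SD it was at 0.47 of the sham level and did not pass (adjusted p = 0.62). It was -0.94 within the wide and 0.10 within the narrow arrays. H2-Ab1, the matching beta chain, differed by -1.28 ± 0.37, -0.90 ± 0.37, -0.86 and -0.02 in the same order. H2-Oa, a chain of the H2-O dimer that restrains peptide loading, passed upwards at 0.45 ± 0.15 without covariate. Cxcl9, a chemokine induced by interferon gamma, was lower at -0.71 ± 0.24 without covariate, was at -0.70 ± 0.26 with array SD, which missed the threshold, and was at -0.07 within the narrow arrays.

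Most markers of blood cells did not pass the threshold, where 3.92% of all genes were higher without covariate and 1.88% with array SD. Cd3g, a chain of the T cell receptor complex, had log2 signals of 6.57, 6.51, 6.60 and 6.28 in FA-sham, against 5.89, 5.30, 5.43 and 6.20 in sham, and the groups did not overlap. It was higher by 0.78 ± 0.22 without covariate (limma, adjusted p = 0.156), by 0.35 ± 0.07 with array SD (adjusted p = 0.453), and was at 0.36 within the narrow arrays. In the 8 arrays alone with array SD it was at 0.31 and did not pass. The other 10 of 11 T and NK cell markers did not pass in either fit, and the list's median was 0.48 without covariate and 0.09 with array SD. Of 14 neutrophil markers, S100a9, a subunit of calprotectin, and Ly6g passed without covariate at 0.65 ± 0.21 and 0.67 ± 0.22, and Retnlg, a resistin-like protein, with array SD at 0.84 ± 0.29. The mean of the 14 ran from 6.22 to 6.45 in FA-sham and from 5.67 to 6.39 in sham. Dbh, the enzyme that makes noradrenaline in sympathetic nerves, had log2 signals of 6.56, 6.44, 6.36 and 6.32 in FA-sham, against 5.92, 5.59, 5.51 and 6.15 in sham, without overlap. It was higher by 0.62 ± 0.16 without covariate and 0.34 ± 0.09 with array SD, and in the 8 arrays alone with array SD it was at 0.31 and did not pass. On each of the 8 arrays, the signals of Cd3g and Dbh were below the array median, which was 6.60 to 6.66 in FA-sham and 6.23 to 6.60 in sham. Of 12 macrophage, 14 endothelial, 9 fibroblast, 8 B cell and 7 mesothelial markers, 0 passed in either fit.

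Among genes past the threshold without covariate, several of the largest higher differences belonged to genes that are not normally active in the heart. Of the 10 largest of these, 6 were olfactory receptors, which sense odorants in the nose. Olfr539 had log2 signals of 7.31, 7.62, 7.54 and 7.22 in FA-sham, against 6.76, 5.62, 5.86 and 7.05 in sham. The groups did not overlap, and sham replicate 4 was nearest to FA-sham. It averaged 7.42 ± 0.19 in FA-sham and 6.32 ± 0.69 in sham (SD, n = 4 each; SE of the difference 0.37), passed the threshold without covariate (limma, adjusted p = 0.156), and with array SD differed by 0.38 ± 0.16 and did not pass. The other 4 were Synb, the placental envelope protein syncytin-B, at 0.98, Rdh7, a retinol dehydrogenase, at 0.94, and the pseudogenes Rdh18-ps at 1.03 and Btnl5-ps at 0.93. The other clusters of Btnl5-ps gave 0.73 and 0.81 without covariate and did not pass. Over all 1027 olfactory receptors the median was 0.55 without covariate, 0.13 with array SD and 0.19 within the narrow arrays. Without covariate 108 were higher and 0 lower, beside 3.92% higher and 0.301% lower of all genes. With array SD 25 were higher and 0 lower, beside 1.88% higher and 0.0351% lower of all genes. With the 3 other scalings and no covariate the median was 0.30, 0.31 and 0.24. The shift was not particular to olfactory receptors. Keratin-associated proteins, beta-defensins and vomeronasal receptors had medians of 0.57, 0.51 and 0.42 without covariate, and 0.11, 0.11 and 0.07 with array SD. The mean signal of the olfactory receptors had a median of 6.35, in signal class 4. Over all clusters of that class the median log2 difference was 0.38 without covariate and 0.07 with array SD.

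**Figure D4:**
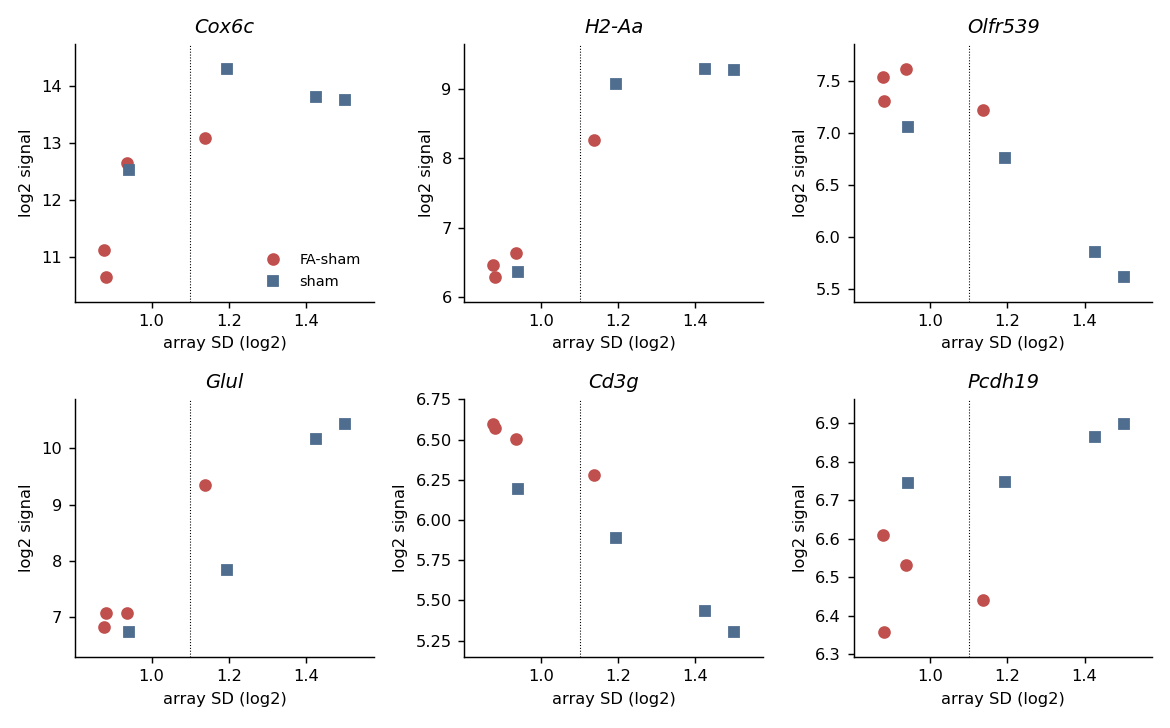
Log2 signal of 6 genes against the SD of each array, for the 4 FA-sham arrays (circles) and the 4 sham arrays (squares), with a dotted line at an SD of 1.1. Cox6c, H2-Aa and Glul are high on the wide arrays, Olfr539 and Cd3g are low on the 3 wide sham arrays, and every FA-sham value of Pcdh19 lies below every sham value.

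Among genes past the threshold with array SD, the 10 largest higher differences were mostly those of genes whose signals climbed with the spread, by 5.82 to 7.66 on the log2 scale per unit of array SD for 9 of the 10 and by 1.45 for Retnlg. Glul, glutamine synthetase, had log2 signals of 7.08, 7.08, 6.82 and 9.35 in FA-sham, against 7.85, 10.43, 10.17 and 6.74 in sham. The groups overlapped, and FA-sham replicate 4 was above sham replicate 1, whose array SD was larger. The log2 difference was -1.21 ± 1.12 without covariate and 1.15 ± 0.24 with array SD (limma, adjusted p = 0.453), 2.21-fold. The second cluster of Glul gave 1.22 with array SD. In the 8 arrays alone with array SD the difference was 1.09 and passed the threshold, whereas within the narrow and within the wide arrays it was 0.26 and -0.13. Clu, the secreted chaperone clusterin, had log2 signals of 7.16, 6.87, 6.83 and 8.74 in FA-sham, against 7.79, 9.80, 9.20 and 6.89 in sham. It differed by -1.02 ± 1.02 without covariate and 1.13 ± 0.25 with array SD, and by 0.68 in the 8 arrays alone, which did not pass.

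The other 8 of these 10 genes were Nqo1 at 0.99, Ctsl, a lysosomal protease, at 0.93, Atxn10 at 0.91, Fhl1, a LIM protein of muscle, at 0.90, Pam, which amidates peptides, at 0.90, Retnlg at 0.84, Psmd2, a subunit of the proteasome cap, at 0.81 and Plp2 at 0.80. With array SD the second cluster of Psmd2 gave 0.78, and the other clusters of Plp2 gave 0.70 and 0.09. Nqo1 had log2 signals of 6.04, 6.31, 6.14 and 7.73 in FA-sham, against 7.20, 8.42, 8.41 and 6.16 in sham. Without covariate its difference was -0.99 ± 0.96, and those of the 9 others were negative too, except that of Retnlg at 0.40 ± 0.34. Within the narrow and within the wide arrays, Atxn10 was at -0.03 and -0.39, Psmd2 at -0.14 and -0.52 and Plp2 at -0.09 and -0.56. In the same order, Clu was at 0.06 and -0.19, Nqo1 at 0.01 and -0.28 and Ctsl at 0.03 and -0.12. Fhl1 was at 0.19 and -0.40, Pam at 0.02 and -0.33 and Retnlg at 0.08 and 0.53. Of the 17 genes named by the fit with array SD, 3 passed without each array in turn (Glul, Clu and Atxn10) and 1 passed in the 8 arrays alone (Glul). Calls of 10 were lost without FA-sham replicate 4, of 9 without sham replicate 1, of 7 without FA-sham replicate 1, of 5 without FA-sham replicate 2, FA-sham replicate 3 or sham replicate 2, of 4 without sham replicate 4 and of 2 without sham replicate 3.

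Further genes passed with array SD and not without it, and 0 of the 7 given here passed within the narrow arrays. In the desmosome and intercalated disc, Cdh2, N-cadherin, was at 0.67 ± 0.14 and Pkp2, plakophilin-2, at 0.61 ± 0.15, 2 of 13 genes. Among 12 glucocorticoid-responsive genes, the kinase Sgk1 was at 0.76 ± 0.23 and Errfi1, an inhibitor of EGF receptor signalling, at 0.61 ± 0.19. Among 14 targets of p53, Trp53inp1 was at 0.76 ± 0.22, the death receptor Fas at 0.65 ± 0.16 and Eda2r at 0.31 ± 0.09. Within the narrow arrays Cdh2, Pkp2, Sgk1, Errfi1, Trp53inp1, Fas and Eda2r were at 0.02, 0.04, 0.13, 0.13, 0.32, 0.27 and 0.15. Within the wide arrays they were at -1.04, -0.58, -0.16, -0.38, -0.19, 0.02 and 0.21 in the same order, so that 5 of the 7 were below 0 there. Of 40 proteasome subunits 6 were higher and 0 lower with array SD, where 1.88% of all genes were higher. Their median was 0.21 with array SD, beside -0.92 without covariate and -0.11 within the narrow arrays.

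**Figure D5:**
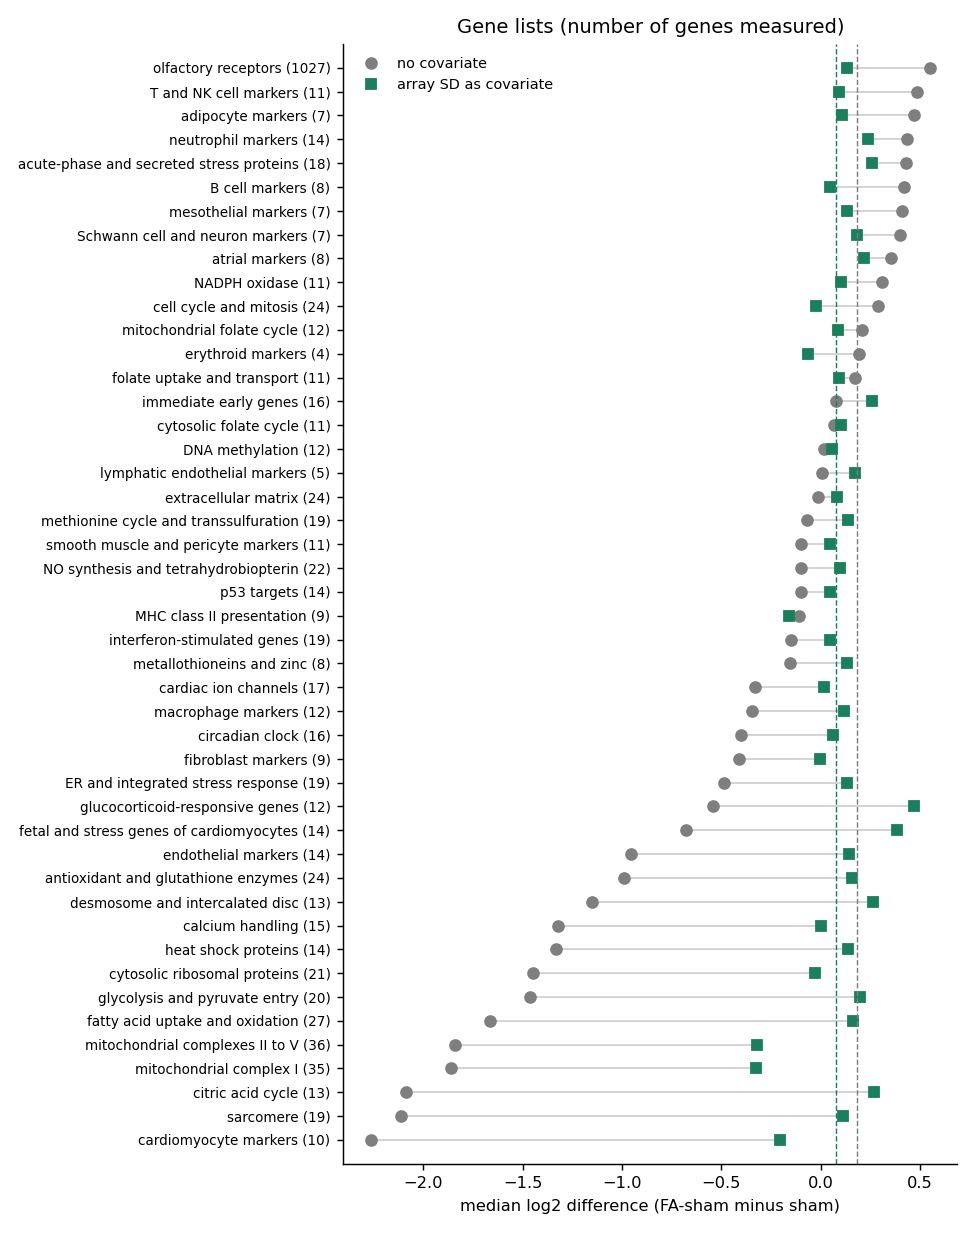
Median log2 difference, FA-sham minus sham, of 45 gene lists and the olfactory receptors without covariate (circles) and with the array SD as a covariate (squares). Dashed lines mark the medians over all genes, 0.18 and 0.08. The lists run from -2.26 for cardiomyocyte markers to 0.55 for olfactory receptors without covariate, and from -0.33 to 0.47 with array SD.

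The 7 named genes that were lower with array SD included 3 microRNA hairpins, Mir1839, Mir10a and Mir325. MicroRNAs pair with messenger RNAs through the seed, bases 2 to 8, which is printed in capitals in the mature sequences below (RefSeq, GRCm38.p6). The capitals show that the strands listed share no seed. For Mir1839 only the 5p strand was at hand. The clusters measure the hairpin gene, not these mature strands.
mmu-miR-1839-5p (chromosome 7): aAGGUAGAuagaacaggucuug
mmu-miR-10a-5p (chromosome 11): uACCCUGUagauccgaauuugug
mmu-miR-10a-3p (chromosome 11): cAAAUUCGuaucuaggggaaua
mmu-miR-325-5p (chromosome X): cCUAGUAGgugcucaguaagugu
mmu-miR-325-3p (chromosome X): uUUAUUGAgcaccuccuaucaa

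Mir1839 had log2 signals of 5.72, 5.61, 5.53 and 5.65 in FA-sham, against 6.54, 6.18, 6.02 and 5.83 in sham, and every FA-sham value was below every sham value, as in 0.181% of all genes. It was lower by a log2 difference of -0.51 ± 0.14 without covariate and -0.41 ± 0.14 with array SD (limma, adjusted p = 0.54). Mir10a differed by -0.38 ± 0.10 with array SD and -0.20 ± 0.14 without, and Mir325 by -0.30 ± 0.09 with array SD and 0.16 ± 0.24 without. Pcdh19, a protocadherin, had log2 signals of 6.36, 6.53, 6.61 and 6.44 in FA-sham, against 6.75, 6.90, 6.86 and 6.75 in sham, without overlap. Its log2 difference was -0.33 ± 0.10 without covariate, -0.29 ± 0.09 with array SD, -0.25 within the narrow and -0.40 within the wide arrays. The others were the vomeronasal receptor Vmn1r5 at -0.31, Crisp3, a cysteine-rich secretory protein, at -0.29 and the predicted gene Gm14636 at -0.40.

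By gene, 185 were called in both fits, 181 higher and 4 lower in FA-sham. The 181 had a mean log2 signal with a median of 6.35, and 25 of them were olfactory receptors. The array medians averaged 6.63 in FA-sham and 6.39 in sham, so these calls mostly lay at dim signals. They included Gldc, Bhmt2, Noxo1, Cd3g and Dbh. All 181 were also above 0 within the narrow and within the wide arrays, a direction that passing both fits on these same arrays largely fixes. The groups did not overlap for 91 of them, where 4.17% of all genes were higher without overlap. Passing both fits on these same arrays raises that share as well. In the 8 arrays alone with array SD, 3 of the 181 passed.

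The 12 DOXO-treated mice gave a separate reading of FA, FA-DOXO against DOXO, with no mouse in common. Of the 575 clusters higher with array SD in FA-sham, 57.4% were above 0 in FA-DOXO against DOXO with the same covariate, beside 54.2% of all clusters, and 9 (1.57%) passed the threshold in either direction, beside 1.11% of all clusters. Of the 60 lower clusters, 56.7% were above 0. Of the 1320 clusters higher without covariate, 80.8% were above 0 in FA-DOXO against DOXO without covariate, beside 58.1% of all clusters. Of the 192 lower ones, 39.1% were above 0. Of these, 3 of the higher (0.227%) and 0 of the lower passed the threshold. The share of all clusters that passed was not counted for that fit. Mean array SD was also lower in FA-DOXO than in DOXO, at 1.04 against 1.13, and its part in these shares was not tested. The fits with array SD share 1 slope over all 20 arrays. For Glul the difference between FA-DOXO and DOXO with array SD was 0.10, for Clu 0.00 and for Nqo1 0.06. Over the genes named by the fits and lists, the smallest adjusted p of the interaction of FA with DOXO was 0.535 with array SD and 0.570 without it (limma).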

How the data were processed

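The deposited table gives a log2 signal for each transcript cluster, which the authors derived from the scans in R 2.14.2 with Bioconductor. No source used here describes the background correction or normalization, and the array distributions differ, so array spread enters each comparison. Raw scans were not used here. The number of arrays limits the precision.

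With limma 3.58.1 (R 4.3.3), group means were fitted to all 20 arrays at each cluster, without a filter, with and without the array SD as a covariate, tested two-sided and adjusted by Benjamini-Hochberg. The fits were tested on simulated data. Exact permutation tests used SciPy 1.17.1. Titles number the arrays as replicates, read here as 1 mouse each. The labels do not say so, and p-values then measure only the spread between these samples. Symbols came from the platform annotation, and clusters with several symbols (1321) or none (11799) were not named. The genes named are the 10 largest differences in each direction and fit among those at an unadjusted p under 0.01 (7 where no more passed), genes of the folate, methionine and NO lists, and up to 3 of each other list. The 45 lists held 720 distinct genes, of which 648 were measured and the others not analysed here. Myh6 and Actc1, outside that rule, were chosen after their values were seen. Members and lists were chosen with earlier results of these data known.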

Additional observations from a re-analysis of the deposited data

Results flagged for a closer look

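Of 86 sets of 4 arrays, which were 42 genes and the array SD in each group (the genes named by the fits and the folate and NO genes named in any case), 13 held an array that stood apart, all of them for genes. In these, the highest or lowest array had a gap to its nearest neighbour above Dixon's critical share of the range. Chance alone gives about 1 in 20 groups. In FA-sham, the array that stood apart was replicate 4, the wide one, and it was high, for Glul (share 0.897), Nqo1 (0.841), Ctsl (0.911), Atxn10 (0.898), Pam (0.936), Psmd2 (0.930) and Plp2 (0.843). For Retnlg in FA-sham it was replicate 1, and it was low (0.861). In sham, the array that stood apart was replicate 4, the narrow one. It was low for Gabarap (0.861), Naa20 (0.867), H2-Aa (0.925) and Folr2 (0.858), and high for Retnlg (0.917).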

How the results depend on the processing

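The mean difference in array SD kept its sign in every alternative run. Without covariate, the higher and lower counts of 1320 and 192 moved to 559 and 292 with quantile normalization, 410 and 611 with median centring, 371 and 707 with scaling, 342 and 93 above the median signal, 439 and 97 in the 8 arrays alone, 3114 higher among the wide arrays, and 54 and 28 among the narrow arrays. The class of spread as a block gave 871 higher, and the lower count moved to 72 for clusters with 1 symbol and 125 with a floor at the 20th percentile. Array weights gave 18390 and 10943, with 30685 past the adjusted threshold, from an estimate that stopped before it converged. Leaving out each array gave 171 to 8178 higher, 54 to 1598 lower and 0 to 14815 adjusted. With array SD, 575 and 60 moved to 188 and 149 with quantile normalization, 171 and 221 with centring, 179 and 237 with scaling (1 adjusted), 298 and 11 above the median signal, 155 and 35 in the 8 arrays alone, and 172 and 148 with the array median as a further covariate. The lower count moved to 10 with 1 symbol and 32 with the floor. Leaving out each array gave 391 to 1400 higher, 39 to 162 lower and 0 to 56 adjusted. H2-Aa turned to 0.10 within the narrow arrays. With the floor and array SD, Gm14636, Mir10a, Vmn1r5 and Crisp3 turned to 0.0589, as most of their values were set to the floor. The cause of the other changes was not tested.

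Arrays of the same replicate number correlated at -0.01, -0.40, -0.53 and -0.86 in their deviations from the group means. FA-sham replicate 4, which was wide, correlated at -0.19, 0.69 and 0.74 with the wide sham replicates 1 to 3. FA-sham replicates 1 to 3, which were narrow, correlated at 0.68, 0.32 and 0.65 with the narrow sham replicate 4. Array spread enters these correlations, so they cannot show whether the numbers pair the samples. With the replicate number as a block, 1599 clusters were higher and 166 lower without covariate, 474 and 68 with array SD, and 0 passed after adjustment in either fit.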
